A study of Mus musculus with 2 samples.

Results

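The 10 genes described here encode the cyclins of the cell cycle and their closest partners: the A-type and B-type cyclins Ccna2, Ccnb1 and Ccnb2, the kinase gene Cdk1, the E-type cyclins Ccne1 and Ccne2, the D-type cyclins Ccnd1, Ccnd2 and Ccnd3, and the inhibitor gene Cdkn1b (p27). They were taken by symbol from the feature table, which holds 55415 features, and each symbol matched 1 feature. The study is a single-cell RNA-seq experiment on mouse embryonic stem cells, sampled as 1 library of MERVL GFP positive and 1 library of MERVL GFP negative cells. All cells belong to a line that carries GFP under the promoter of the endogenous retrovirus MERVL, a reporter of the 2C-like state, and H2B-mIFP, a nuclear label for following cells. The labels give no treatment, time point, number of clones or way of separating the cells. Their batch entry repeats the group, and the 2 cannot be told apart. With 1 library a group there is no replicate and no test of a group difference. Every interval below is an exact 95% interval that covers counting error only.

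Levels are given as CPM, the UMIs of a gene summed over cells and scaled to an equal total of UMIs in every group. After 7 cells were removed from the positive library, 4596 positive and 3832 negative cells remained, with a median of 29554.5 and 39099.5 UMIs and of 2.56% and 1.60% mitochondrial UMIs. The libraries shared 3 barcodes, and doublets were not called. The reporter followed the labels: GFP was at 205 CPM in the positive and 0.454 CPM in the negative library. The labelled cell type was checked on 6 pluripotency genes (Pou5f1, Sox2, Nanog, Zfp42, Klf4 and Esrrb), all detected in both libraries, with a summed level of 2397 CPM in the positive and 2763 CPM in the negative library. Markers of other cells also moved with the label. A list of 10 primitive endoderm genes summed to 868 CPM against 354 CPM, with 7 of the 9 that could be compared higher in the positive library and none at 0 in either. A list of 6 fibroblast genes summed to 12.8 CPM against 3.13 CPM, with 2 of them (Col3a1 and Postn) at 0 in the negative library. Most of both sums was Thy1, at 9.29 against 2.15 CPM, and none of the 6 reached 10 CPM in either library. A list of 6 trophoblast genes summed to 28.3 CPM against 43.4 CPM. The lower trophoblast sum came from Tfap2c alone, at 18.4 against 39.5 CPM, while the others were at higher levels in the positive library, such as Gata3 at 5.18 against 0.908 CPM. The part of these other cells, of depth and of mitochondrial RNA in the library differences below was not tested, except where values within classes of cells are given.

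Cyclins are the regulatory subunits of the cyclin-dependent kinases, and their levels and partners set the order of the cell cycle. D-type cyclins with Cdk4 or Cdk6 act in G1, E-type cyclins with Cdk2 at entry into S phase, cyclin A with Cdk2 and Cdk1 through S and G2, and B-type cyclins with Cdk1 at mitosis, while p27 binds and inhibits these complexes. Mouse embryonic stem cells have a short G1, with low D-type cyclins and cyclin E activity that varies little over the cycle. A few cells in such cultures switch on MERVL and the Zscan4 genes, as embryos do at the 2-cell stage, and are called 2C-like. Others switch on Gata6 and Dab2, genes of the primitive endoderm, an extraembryonic lineage.

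Many genes of the late cell cycle carry CCAAT boxes and a CHR element (cell cycle genes homology region) close to their start site, and genes of the G1/S step carry E2F sites, so promoters are shown here for the members whose values part company below: Ccnb1 and Cdk1, which were higher in Zscan4-high cells, Ccnb2, which was not, and Ccne1, which was level across the Zscan4 classes. The sequences are from RefSeq on GRCm38.p6, run from 250 bases before to 50 bases after the start site, and are written 5′ to 3′ on the gene's strand. Of the 10 genes, 6 had an entry; those of Ccna2, Ccnd1, Ccnd2 and Ccne2 are not shown. Capitals mark matches to the CCAAT box, to a CHR element and to an E2F core. The CHR element was searched only as TTTGAA and TTCGAA, so a CHR of any other form is not marked or counted. The E2F core was searched as TTCCCGC, as the variant TTCGCGC and as the variant TTGGCGC. Every motif was searched on both strands, so that a CCAAT box on the other strand reads ATTGG.
Ccnb1 (chr13:100786437-100786736, minus strand): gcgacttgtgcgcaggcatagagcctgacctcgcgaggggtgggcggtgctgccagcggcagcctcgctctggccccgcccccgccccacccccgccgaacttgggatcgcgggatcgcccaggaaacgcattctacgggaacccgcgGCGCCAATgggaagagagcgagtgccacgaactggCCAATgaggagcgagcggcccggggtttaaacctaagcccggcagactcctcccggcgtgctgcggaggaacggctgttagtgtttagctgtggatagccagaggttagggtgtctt
Ccnb2 (chr9:70421505-70421804, minus strand): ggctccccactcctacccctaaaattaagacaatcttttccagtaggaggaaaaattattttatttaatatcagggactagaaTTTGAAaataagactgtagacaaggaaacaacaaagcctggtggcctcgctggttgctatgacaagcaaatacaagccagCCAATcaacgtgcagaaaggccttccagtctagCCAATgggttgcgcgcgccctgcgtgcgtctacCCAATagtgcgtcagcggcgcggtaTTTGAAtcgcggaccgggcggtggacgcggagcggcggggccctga
Cdk1 (chr10:69352863-69353162, minus strand): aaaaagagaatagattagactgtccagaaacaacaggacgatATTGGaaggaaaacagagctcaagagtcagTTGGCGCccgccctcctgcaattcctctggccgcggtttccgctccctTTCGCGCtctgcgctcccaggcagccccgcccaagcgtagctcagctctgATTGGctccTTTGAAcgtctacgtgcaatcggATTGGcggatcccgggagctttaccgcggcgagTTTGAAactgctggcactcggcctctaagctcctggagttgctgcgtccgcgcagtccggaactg
Ccne1 (chr7:38107441-38107740, minus strand): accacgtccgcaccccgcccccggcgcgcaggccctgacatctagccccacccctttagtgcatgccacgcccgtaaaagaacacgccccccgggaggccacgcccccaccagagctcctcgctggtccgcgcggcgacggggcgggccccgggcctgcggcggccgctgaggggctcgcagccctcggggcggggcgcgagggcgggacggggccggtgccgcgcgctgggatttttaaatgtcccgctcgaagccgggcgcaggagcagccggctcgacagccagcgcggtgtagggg
The Cdk1 window held 3 CCAAT matches, 2 CHR matches and 2 E2F core matches. The Ccnb2 window held the same number of CCAAT and CHR matches and no E2F core match, with 1 CHR match starting 5 bases after the start site. The Ccnb1 window held 2 CCAAT matches and 1 E2F core match, and these overlap: the capitals at its first marked run are an E2F core form on the other strand that shares bases with a CCAAT box. No match was found in the Ccne1 window. Of the remaining windows, that of Cdkn1b held 3 CCAAT matches, 1 of the 2 Ccnd3 windows held 1, and neither gene had a CHR or E2F core match. Over all 32851 promoters of the table, 37.4% held a CCAAT match, 19.2% a CHR match and 8.07% an E2F core match. A match is a stretch of letters, not a shown binding site.

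Between the libraries, cyclin A2 and cyclin E2 transcripts were higher and cyclin D1 transcripts lower in the positive library by at least 1.5 times, the fold used throughout to call a difference. The fold was read for genes with at least 10 CPM in 1 of the 2 groups and at least 50 UMIs in all, which 9 of the 10 members passed (Ccnd2 did not). Of these 9, 2 were higher and 1 was lower, beside 18.8% higher and 5.26% lower among the 8042 genes compared. The median log2 ratio was 0.24 over the 9 members compared, 0.26 with Ccnd2 included, and 0.15 over all genes compared. Scaling by TMM (edgeR's trimmed mean of M values) lowers every log2 ratio of this comparison by the same amount, a shift of -0.29. It turned the split of members to 2 higher and 3 lower, with 9.64% of all genes higher and 16.2% lower. The 3 lower were then Ccnd1, Ccne1 and Ccnd3, at log2 ratios of -1.19, -0.75 and -0.67. The differences of Ccnb2 and Cdk1 below are smaller than the TMM shift and change sign with it.

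Ccna2 (cyclin A2; chr3:36564865-36572150, minus strand, GRCm38) was at 204 CPM (202 to 207) in positive cells and 106 CPM (104 to 107) in negative cells. The CPM ratio was 1.93 (1.90 to 1.97), a log2 ratio of 0.95. After thinning each cell to 10000 UMIs, 75.6% of 4402 positive cells and 61.1% of 3824 negative cells held a Ccna2 UMI. The upper end of the distribution differed more than its middle: the highest cell held 27 thinned UMIs in the positive and 9 in the negative library, and the 99th percentile was 11 against 4. No class of cells known to lack the members is at hand, so what free RNA adds to such shares was not measured. Among cells with 0 thinned UMIs of Gata6 and Dab2, 3290 positive and 3371 negative cells, the log2 ratio of Ccna2 was 0.70.

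The mitotic members were higher in the positive library by less than the fold. Ccnb1 (cyclin B1; chr13:100778650-100786570) was at 194 CPM against 149 CPM, a ratio of 1.30 (1.28 to 1.32). Cdk1 (chr10:69335146-69352938), the kinase that cyclin B activates at mitosis, was at 225 CPM against 186 CPM, a ratio of 1.21 (1.19 to 1.23). Ccnb2 (cyclin B2; chr9:70407692-70421547) was at 108 CPM against 91.9 CPM, a ratio of 1.18 (1.15 to 1.21). Under TMM scaling the log2 ratio of Ccnb1 was 0.09, that of Ccnb2 -0.06 and that of Cdk1 -0.02. The shares of thinned cells with a UMI went the way of the CPM: 78.3% against 71.5% for Ccnb1, 78.2% against 75.1% for Cdk1 and 63.5% against 57.3% for Ccnb2.

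The E-type cyclins went opposite ways. Ccne2 (cyclin E2; chr4:11191351-11204779, plus strand) was at 14.6 CPM (13.9 to 15.2) in positive cells against 7.88 CPM (7.45 to 8.34), a ratio of 1.85 (1.72 to 1.98). Ccne1 (cyclin E1; chr7:38097984-38107534) was at 104 CPM against 143 CPM, a ratio of 0.731 (0.716 to 0.747). The difference of Ccne1 lay inside the fold, at a log2 ratio of -0.45, and passed it under TMM scaling at -0.75. A UMI of Ccne1 was found in 56.4% of thinned positive and 69.1% of thinned negative cells, and one of Ccne2 in 13.8% and 7.61%.

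Among the D-type cyclins, Ccnd1 (cyclin D1; chr7:144929931-144939925) was at 24.1 CPM (23.3 to 24.9) against 45.0 CPM (43.9 to 46.0). Its ratio was 0.536 (0.514 to 0.558), a log2 ratio of -0.90, and 17.4% of thinned positive cells held a UMI against 30.9% of negative cells. Ccnd3 (cyclin D3; chr17:47505051-47599691, plus strand) was lower by less, at 130.2 CPM against 169 CPM, a ratio of 0.768 (0.754 to 0.783). Ccnd2 (cyclin D2; chr6:127125162-127152193) was scarce, at 2.89 CPM (2.62 to 3.19) against 2.06 CPM (1.84 to 2.296), and 2.77% and 1.60% of thinned cells held a UMI. The inhibitor gene Cdkn1b (chr6:134920401-134925513, plus strand) was at 20.4 CPM against 23.5 CPM, a ratio of 0.869 (0.827 to 0.913).

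**Figure D1:**
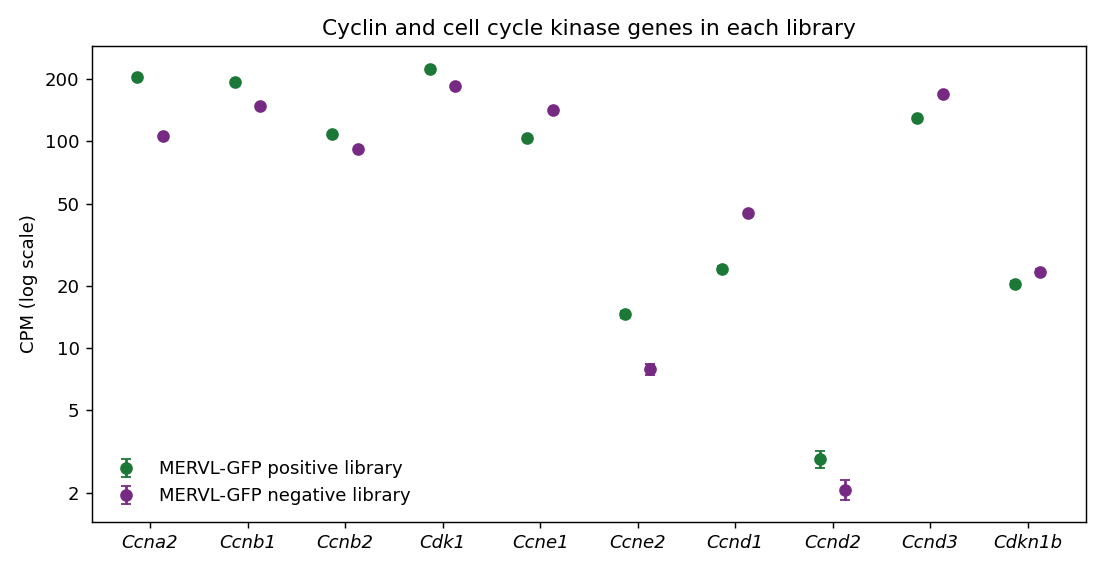
CPM of each of the 10 genes (log axis) in the MERVL-GFP positive library (green) and the negative library (purple); bars are exact 95% Poisson intervals and are often smaller than the points. Ccna2 lies at 204 against 106 CPM and Ccnd1 at 24.1 against 45.0 CPM.

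A level summed over a library can hide cells of different kinds, so each gene was followed across cells of the positive library ordered by their own Zscan4 RNA, the marker of the 2C-like state. Cells were placed by the summed UMIs of Zscan4a to Zscan4f after thinning to 10000 UMIs, since these copies are alike and reads may be split among them: 1970 cells held 0, 1564 held 1 to 4, 630 held 5 to 19 and 238 held 20 or more. In the negative library 10 cells held any. Of the 9 members compared between the highest class and the class at 0, 4 were higher (Ccna2, Ccnb1, Cdk1 and Ccne2) and 3 lower (Ccnd1, Ccnd3 and Cdkn1b), beside 20% higher and 24.4% lower among 8558 genes. Median-of-ratios scaling turned the shares of all genes to 24.3% and 17.8% and left the counts of members at 4 and 3. Under TMM scaling 3 members were higher and 3 lower, beside 18.6% and 27.2% of all genes. Cdk1 then lay inside the fold, at a log2 ratio of 0.55. The median log2 ratio was -0.11 over all 10 members and -0.14 over all genes compared; over the 9 members compared it was that of Ccne1, which was level. The highest class was shallower, at a median of 18813.5 UMIs against 33015, with 3.43% against 2.35% mitochondrial UMIs. Its summed pluripotency genes were at 1065 CPM against 2797 CPM, with all 6 lower, and its primitive endoderm genes at 351 CPM against 891 CPM. In cells of 15000 to 40000 UMIs only, 186 against 1462 cells, the same counts of 4 higher and 3 lower members were found.

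Ccna2 was higher in each class than in the one before, at 169, 212, 290.4 and 335 CPM from 0 to 20 or more Zscan4 UMIs. The ratio of the outer classes was 1.99 (1.88 to 2.10). Ccnb1 stood at 180.1, 187, 230.2 and 327 CPM, so that most of its difference lay in the highest class, with a ratio of 1.82 (1.72 to 1.92). Cdk1 followed it at 210.2, 225, 264 and 319 CPM, a ratio of 1.52 (1.44 to 1.60), which lay just past the fold and inside it under 4 of 12 alternatives. Ccnb2 did not go with them: it was at 109, 111, 107 and 93.4 CPM, a ratio of 0.856 (0.776 to 0.943). When the high class was widened to 5 or more Zscan4 UMIs, Ccnb1 and Cdk1 came to lie inside the fold, at log2 ratios of 0.48 and 0.39 in place of 0.86 and 0.60.

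Ccne2 was higher in each Zscan4 class than in the one before. It was at 10.9, 14.9, 20.8 and 39.7 CPM through the 4 classes, a ratio of 3.65 (3.09 to 4.30) between the outer ones. Its log2 ratio of 1.87 became 1.20 with the wider high class. Ccne1 was level, at 107, 103, 97.5 and 107 CPM, with a ratio whose interval ran from 0.911 to 1.09. Each of these 4 Ccne1 levels lay below the 143 CPM of the negative library, so the lower Ccne1 of the positive library was present at every Zscan4 level.

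Ccnd1, Ccnd3 and p27 were lower where Zscan4 was high. Ccnd1 was at 28.2, 24.4, 11.7 and 8.74 CPM, a ratio of 0.310 (0.221 to 0.422). Ccnd3 was at 151, 126, 79.5 and 70.8 CPM, a ratio of 0.470 (0.420 to 0.524). In both, the widest step lay between the classes of 1 to 4 and 5 to 19 Zscan4 UMIs. Cdkn1b stayed near 20 CPM in the first 3 classes (20.9, 21.1 and 19.5 CPM) and was at 11.5 CPM in the highest, a ratio of 0.551 (0.412 to 0.724). With the wider high class its log2 ratio was -0.24 in place of -0.86. Ccnd2 was at 3.39, 2.51, 2.46 and 2.13 CPM, and the intervals of the outer classes overlap.

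**Figure D2:**
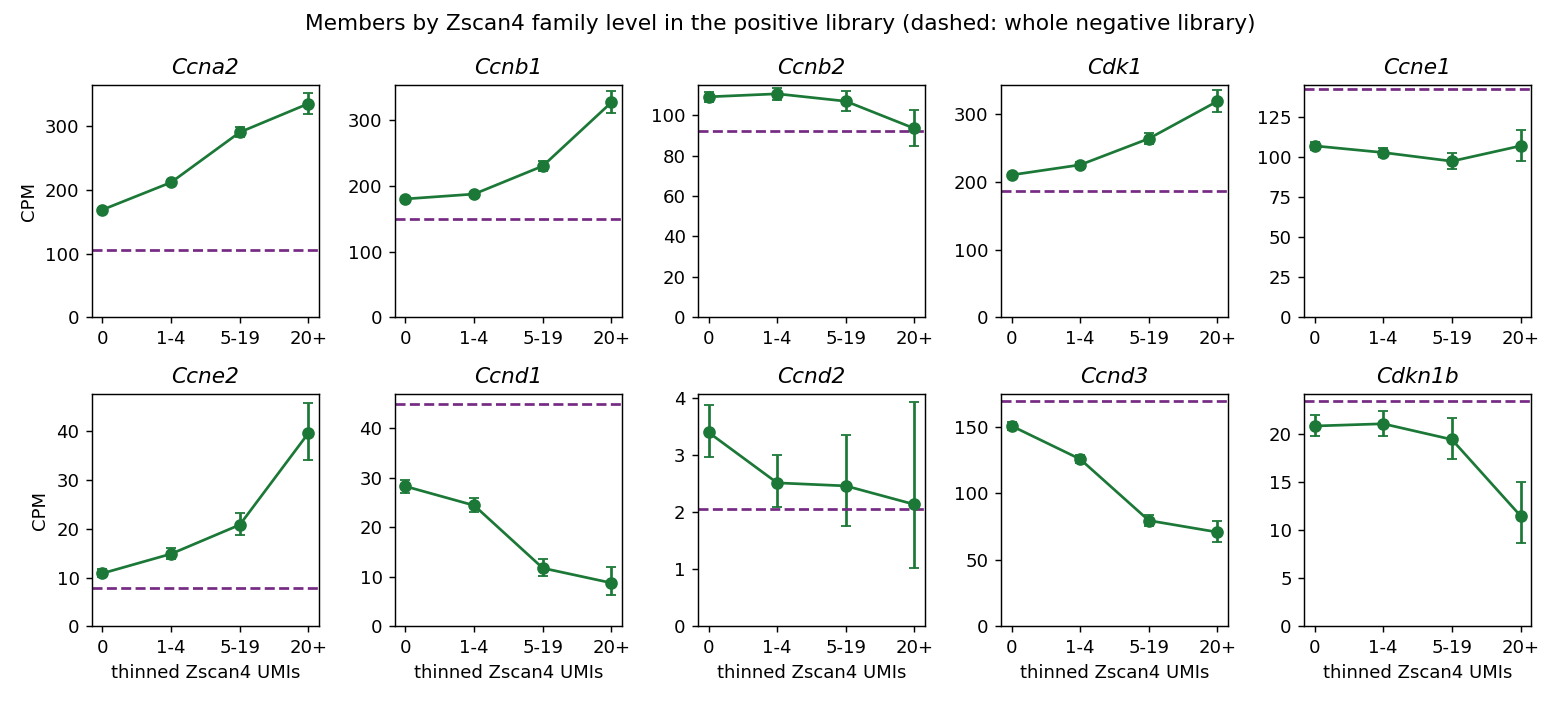
CPM of each gene in positive-library cells with 0, 1 to 4, 5 to 19 and 20 or more thinned Zscan4 UMIs, with exact 95% Poisson intervals; the dashed line is the whole negative library. Ccna2, Ccnb1, Cdk1 and Ccne2 run upward, Ccnd1 and Ccnd3 downward, Cdkn1b is lower in the highest class, and Ccne1 stays below the dashed line throughout.

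Cells were also ordered by the RNA of the reporter itself, in classes of 0 (1677 cells), 1 to 2 (1339), 3 to 5 (807) and 6 or more (579) thinned GFP UMIs. Of the 9 members compared between the outer classes, 1 was higher and 2 were lower, beside 8.92% higher and 11.7% lower among 8232 genes. Under TMM scaling 1 member was higher and 1 lower, beside 10.3% and 8.37% of all genes. Ccna2 was the higher one, at 157, 209.9, 259 and 283 CPM, a ratio of 1.80 (1.74 to 1.87). Ccnd1 was at 29.0, 24.1, 18.6 and 15.2 CPM, a ratio of 0.526 (0.455 to 0.605). Ccnd3 was at 146, 135, 109.6 and 92.4 CPM, a ratio of 0.634 (0.598 to 0.671), which came inside the fold under TMM and median-of-ratios scaling and when the high class began at 3 GFP UMIs. The steps of the mitotic genes with GFP were smaller than with Zscan4: the ratios were 1.27 for Ccnb1, 1.23 for Cdk1 and 0.957 for Ccnb2. Cdkn1b was at 19.7, 20.8, 21.5 and 20.8 CPM, level where it had been lower with Zscan4.

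GFP and Zscan4 overlap in these cells, and Zscan4 RNA was at 117 CPM in the class with 0 GFP UMIs and at 780 CPM in the highest class. The GFP comparison was therefore repeated in cells with 0 thinned Zscan4 UMIs, 115 high and 1043 low cells, a setting chosen after the data were seen. There the log2 ratio of Ccna2 was 0.98, against 0.85 in all cells, and that of Ccnd1 was -0.76, against -0.93. That of Ccne2 turned from 0.37 to -0.60, while that of Ccnb1 went from 0.34 to 0.20. The higher Ccne2 of GFP-high cells was thus not found at 0 thinned Zscan4 UMIs. Such cells are not free of Zscan4 RNA: all positive cells at 0 thinned Zscan4 UMIs together held 32.5 CPM of it. No interval was computed for the ratios of this setting. The GFP classes differed in depth too, with a median of 24342 UMIs in the highest and 32428 in the class at 0. Summed pluripotency genes were at 1581 CPM in the highest class and 2697 CPM in the class at 0, with 4 of 6 lower. The endoderm list was at 920 against 811 CPM, with none past the fold.

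A different picture came from cells ordered by summed Gata6 and Dab2, in classes of 0, 1, 2 to 4 and 5 or more thinned UMIs. The highest class carried the endoderm list at 5513 CPM against 293 CPM at 0 in the positive library (386 and 3290 cells) and at 4122 CPM against 123 CPM in the negative library (191 and 3371 cells), and its pluripotency genes summed to 677 against 2721 CPM and 958 against 2887 CPM, with 5 of 6 lower in each and Pou5f1 inside the fold. The endoderm list includes the genes that sorted the cells, Gata6 and Dab2, which were at 541 and 756 CPM in the highest positive class and at 682 and 328 CPM in the highest negative class. Depth was nearly equal, with medians of 30610 and 30489.5 UMIs in the positive and 40225 and 39094 UMIs in the negative library. Of the members compared, 2 of 9 were higher and 1 was lower in the positive library, beside 12.5% and 15.2% of 8250 genes. In the negative library 1 of 8 was higher and 1 was lower, beside 15% and 8.94% of 7648 genes, or 12.5% and 11.3% under TMM scaling with the same counts of members. The median log2 ratio of the members compared was 0.05 in the positive and -0.05 in the negative library, beside -0.06 and 0.04 over all genes compared; over all 10 members it was 0.05 and 0.10.

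Ccna2 was higher with the endoderm genes in positive cells; among negative cells its difference had the same direction but lay inside the fold. From the class at 0 to the highest, positive cells held 168, 209.7, 359.8 and 428 CPM, a ratio of 2.54 (2.46 to 2.62). Negative cells held 103, 108, 125 and 139.8 CPM, a ratio of 1.35 (1.27 to 1.44). Cells with the endoderm genes thus differed in Ccna2 between the libraries by more than the cells without them, at 428 against 139.8 CPM and 168 against 103 CPM. The intervals of the log2 ratios of the 2 libraries do not overlap for 4 members: Ccna2 (1.35 and 0.44), Ccnb2 (0.16 and 0.45), Cdk1 (-0.46 and -0.25) and Cdkn1b (0.60 and 0.93). TMM scaling shifts these ratios by 0.09 in the positive and -0.09 in the negative library. With that shift the intervals of Ccnb2, Cdk1 and Cdkn1b overlap, and those of Ccna2 stay apart. Whether the ratios differ between the reporter groups was not tested, since each has 1 library.

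The mitotic genes differed from one another along Gata6 and Dab2. Ccnb1 was at 193, 206, 201 and 183 CPM in the positive library, and at 149.5, 147, 165 and 143 CPM in the negative library. Cdk1 was lower in the highest class, at 169.6 against 233 CPM in the positive library (ratio 0.729, 0.697 to 0.762) and 158 against 188 CPM in the negative library (0.841, 0.794 to 0.890). Ccnb2 was higher there, at 121 against 108 CPM and at 122 against 89.3 CPM, ratios of 1.12 and 1.37. Neither gene passed the fold in either library. Thus Cdk1 and Ccnb2 lay on the opposite sides of 1 from those they took in Zscan4-high cells, in both libraries.

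The D-type cyclins differed from one another along the same order of cells. Ccnd1 was at 27.4, 21.4, 12.996 and 6.44 CPM in positive cells, a ratio of 0.235 (0.185 to 0.294). In negative cells it was at 47.3, 47.0, 21.9 and 9.82 CPM, a ratio of 0.208 (0.164 to 0.260), and its log2 ratio went from -2.27 to -3.17 in cells of 15000 to 40000 UMIs only. Ccnd2 went the other way, at 2.35, 1.87, 3.25 and 8.88 CPM in the positive library and 1.69, 2.22, 2.02 and 8.18 CPM in the negative library. Its ratios were 3.78 (2.99 to 4.76) and 4.84 (3.62 to 6.40), but it stayed under 10 CPM in every class and so under the level at which a fold was called. After thinning, 7.51% of the highest class and 2.10% of the class at 0 held a Ccnd2 UMI in the positive library, and 8.90% and 1.28% in the negative library. Ccnd3 was lower in the highest class by less than the fold, at 96.1 against 134 CPM and 128 against 172 CPM.

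Cdkn1b was higher in endoderm-marked cells of both libraries, the opposite of its direction with Zscan4. It was at 19.5, 20.1, 19.8 and 29.6 CPM in positive cells, a ratio of 1.52 (1.35 to 1.70). Negative cells held 22.5, 20.1, 28.3 and 42.9 CPM, a ratio of 1.91 (1.70 to 2.14). The ratio in the positive library lay just past the fold, and 4 of 12 alternatives put it inside. The E-type cyclins differed little between the outer classes. Ccne1 was at 108 against 104 CPM and 140.1 against 144 CPM, though at 110.5 CPM (97.8 to 124) in the 55 negative cells with 2 to 4 UMIs, and Ccne2 at 14.9 against 14.3 CPM and 9.19 against 7.80 CPM.

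**Figure D3:**
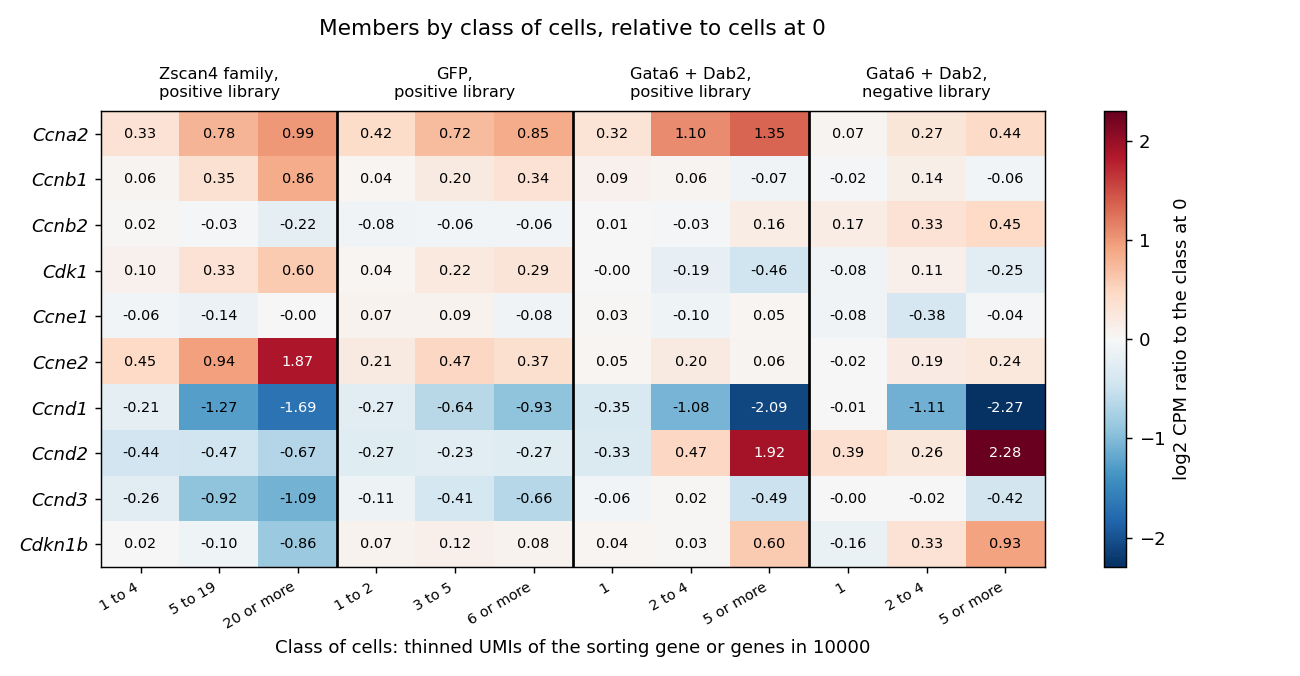
log2 CPM ratio of each gene in every class of cells to the class at 0 of the same order, for Zscan4, GFP and Gata6 plus Dab2 in the positive library and Gata6 plus Dab2 in the negative library. Ccna2 is red in all 3 orders of the positive library, reaching 1.35, Ccnd1 is blue in the outer classes of each order, and Ccnd2 and Cdkn1b are clearly red in the highest class of both Gata6 plus Dab2 panels.

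Zscan4 and the endoderm genes were then set against each other in 4 joint classes of the positive library. Ccna2 was at 138 CPM (135 to 142) in 1696 cells with 0 Zscan4 UMIs and at most 1 of Gata6 and Dab2 (called low for both below), at 269.5 CPM (262 to 277) in 769 cells with 5 or more Zscan4 UMIs and at most 1 of Gata6 and Dab2, at 359 CPM (347 to 372) in 274 cells with 0 Zscan4 UMIs and 2 or more of Gata6 and Dab2, and at 529.6 CPM (501 to 559) in 99 cells with both. It was higher with either marker and highest with both, and no 2 of the 4 intervals overlap. Ccnb1 was at 179, 259, 189 and 201 CPM in the same order and Cdk1 at 215, 285, 180.1 and 211 CPM. The cells with both held less Zscan4 RNA, at 1142 against 1654 CPM, and 13 of the 99 held 20 or more Zscan4 UMIs, against 225 of the 769 with Zscan4 alone. In a split added after the data were seen, cells with 5 to 19 Zscan4 UMIs had Ccnb1 at 237 CPM (229 to 245) without and 189 CPM (172 to 208) with the endoderm genes. In cells with 20 or more it was at 328 CPM (312 to 346) and 306 CPM (241 to 384), and these intervals overlap. Cdk1 was at 275 and 193 CPM in cells with 5 to 19, and at 316 CPM (299.6 to 333) and 380 CPM (306 to 465) in those with 20 or more. Across the 4 joint classes Ccne2 was at 10.4, 25.2, 13.7 and 23.6 CPM, following Zscan4 with or without the endoderm genes.

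Ccnd1 was lower in each of the other 3 classes than in the cells low for both. It was at 31.5 CPM (30.1 to 33.0) in cells low for both, and at 11.3, 7.69 and 9.21 CPM in the cells with Zscan4, with the endoderm genes and with both. Ccnd3 was at 155, 79.4, 123 and 64.5 CPM in that order, lower chiefly with Zscan4. Cdkn1b was at 19.5, 18.1, 29.3 and 14.4 CPM, and was thus higher only in the cells that had the endoderm genes without Zscan4. Cells with 5 or more Zscan4 UMIs were shallower, with medians of 22127 and 22830 UMIs against 33005.5 and 33130.5, so depth moved with Zscan4 and not with the endoderm genes.

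**Figure D4:**
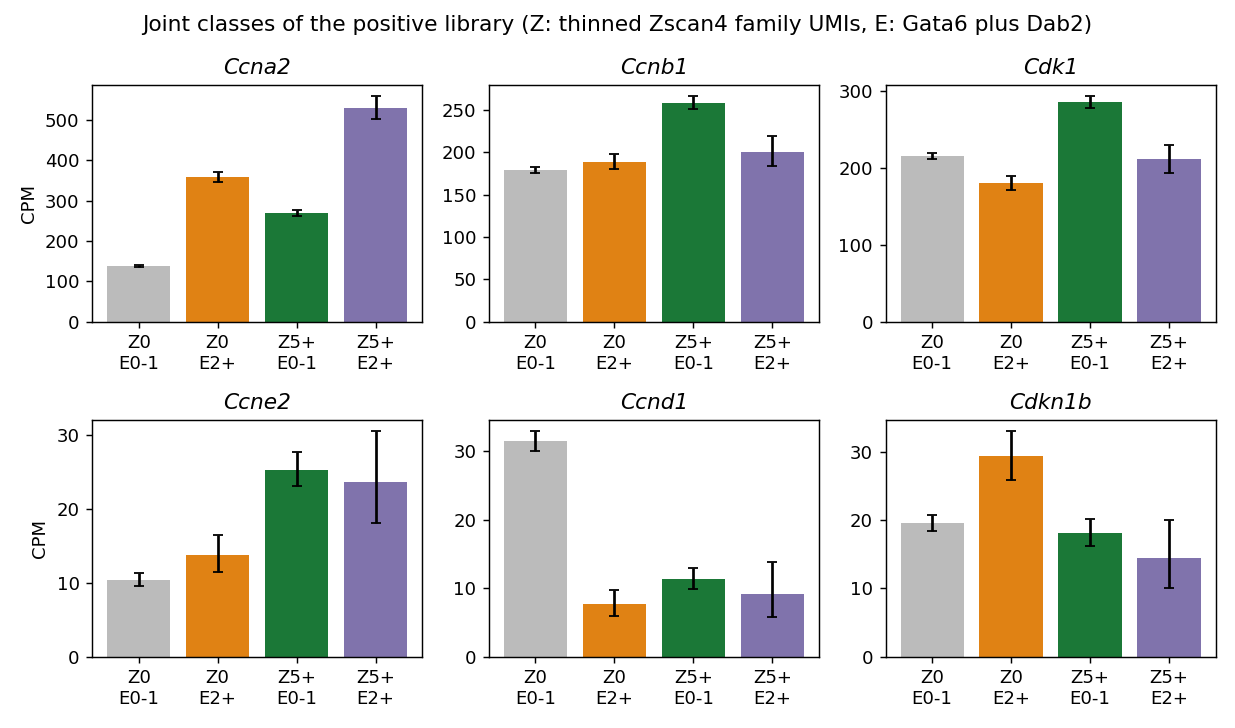
CPM of 6 genes in 4 joint classes of the positive library, with exact 95% Poisson intervals; Z is the number of thinned Zscan4 UMIs and E that of Gata6 plus Dab2. Ccna2 is highest in cells with both, at 529.6 CPM, while Ccnb1 and Cdk1 are highest in cells with Zscan4 alone, at 259 and 285 CPM, which also hold more Zscan4 RNA than the cells with both.

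The cells with much Ccna2 were counted directly, by a cut chosen after the data were seen. In the positive library 326 of 4402 cells held 6 or more thinned Ccna2 UMIs, a share of 7.41% (6.65 to 8.22%), and in the negative library 10 of 3824, a share of 0.262% (0.125 to 0.480%). Within the positive library the share was 1.24% in cells low for both, 11.2% in those with Zscan4, 25.2% in those with the endoderm genes and 36.4% in those with both. Of cells with 5 or more UMIs of Gata6 and Dab2, 123 of 386 passed the cut in the positive library and 2 of 191 in the negative library, or 31.9% (27.2 to 36.8%) against 1.05% (0.127 to 3.73%). The high-Ccna2 cells of the positive library were thus nearly absent from the endoderm-marked cells of the other library.

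Other members differed in these 326 cells from the 2193 positive cells with at most 1 Ccna2 UMI. Past the fold were Ccnb1, at 267 against 169.8 CPM, and Ccne2, at 19.6 against 11.9 CPM, both higher, and Ccnd1, at 8.53 against 27.0 CPM, and Ccnd3, at 84.4 against 139 CPM, both lower. Among all 8198 genes compared, 9.89% were higher and 12.3% lower. Inside the fold were Cdk1, at 273 against 205 CPM, Ccnb2, at 131 against 100.4 CPM, the inhibitor gene Cdkn1b, at 28.0 against 19.7 CPM, and Ccne1, at 103 against 100.2 CPM. Dab2 was at 473 against 36.0 CPM, Gata6 at 192 against 38.7 CPM, the Zscan4 family at 567 against 211 CPM and GFP at 346 against 158 CPM. Their median depth was 26300.5 against 30703 UMIs and their mitochondrial share 2.48% against 2.49%.

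**Figure D5:**
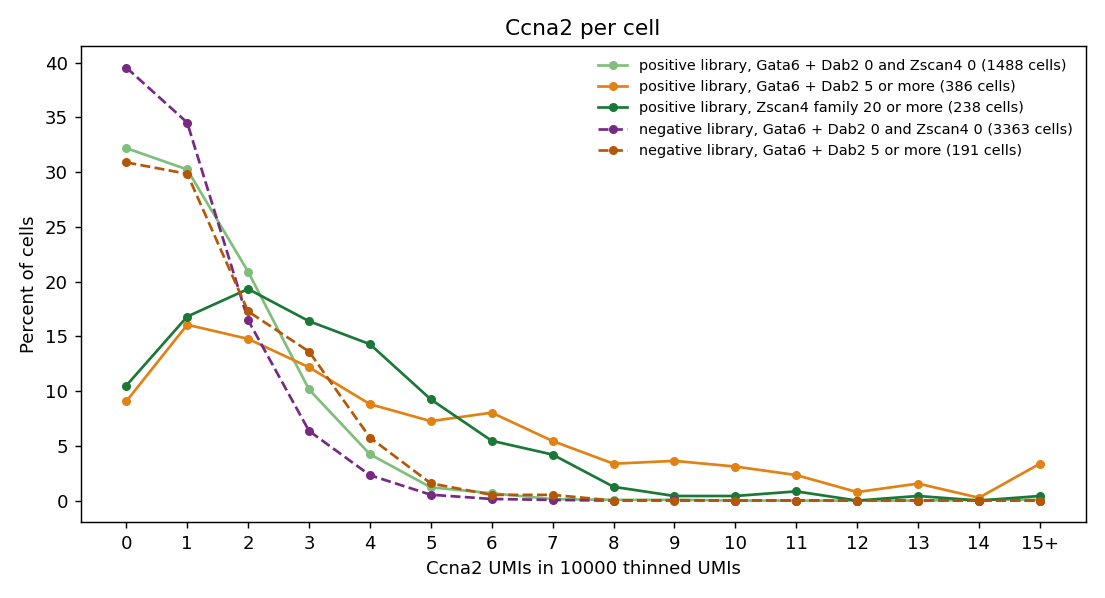
Percent of cells with each number of Ccna2 UMIs after thinning to 10000 UMIs (the last point is 15 or more), in 3 sets of positive cells (solid) and 2 sets of negative cells (dashed). The line of endoderm-marked positive cells (386 cells) runs far to the right, while that of endoderm-marked negative cells (191 cells) keeps close to the unmarked cells.

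The libraries were also compared in cells with 0 thinned UMIs of Zscan4 and of GFP, 1043 positive and 3796 negative cells. Thinning lowers these markers without removing them: the list of 10 2-cell-like genes was still at 45.6 CPM in the positive and 0.271 CPM in the negative cells. None of the 9 members compared passed the fold in either direction, beside 12.5% of 7834 genes higher and 2.28% lower. Under TMM scaling 2 members were lower, Ccne1 and Ccnd1, at log2 ratios of -0.82 and -0.92, and 4.03% of all genes were higher and 11.4% lower. The median log2 ratio was 0.17 over the 9 members compared, 0.21 with Ccnd2 included, and 0.17 over all genes compared. Ccnd2, below the level filter, was at 3.45 against 2.06 CPM. Ccna2 was at 141 against 106 CPM, a ratio of 1.33 (1.29 to 1.38), well below the 1.93 of the whole libraries, and its log2 ratio went from 0.42 to 0.22 when cells with Gata6 or Dab2 were also left out and to 0.08 under TMM scaling. Ccnd1 was at 30.1 against 45.0 CPM, a log2 ratio of -0.58 that lay at the edge of the fold and passed it under 7 of 11 alternatives. Ccne1 was at 102 against 143 CPM, a log2 ratio of -0.49, no nearer to the negative library than in all cells. Ccne2 was at 11.01 against 7.85 CPM, a log2 ratio of 0.49, or 0.15 under TMM scaling. Ccnb1, Ccnb2 and Cdk1 had log2 ratios of 0.26, 0.27 and 0.17, which became -0.08, -0.07 and -0.17 under TMM scaling. Ccnd3 was at 154 against 169.8 CPM and Cdkn1b at 19.999 against 23.5 CPM. Mitochondrial UMIs were at 2.39% against 1.60% in these cells, and their endoderm list at 816 against 350 CPM.

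Since cyclin B1 RNA itself moves through the cycle, cells were finally ordered by Ccnb1, with no phase score. In the positive library 955 cells held 0 thinned Ccnb1 UMIs, 2150 held 1 to 2, 1113 held 3 to 5 and 184 held 6 or more; in the negative library the numbers were 1090, 2054, 642 and 38. Cdk1 was higher with Ccnb1 in both, at 170.4, 205, 284 and 399 CPM in positive cells and from 156 to 385 CPM in negative cells. So was Ccna2, at 161, 192, 250.7 and 294 CPM in positive cells and from 97.0 to 151 CPM in negative cells, so that at each Ccnb1 level the positive cells were higher. Ccne1 was nearly level in positive cells, from 96.9 to 109 CPM. In negative cells it was at 145, 145 and 137 CPM in the first 3 classes. It was lower in the highest negative class of 38 cells, at 97.5 CPM (82.6 to 114). The D-type cyclin Ccnd3 was at 136, 138, 116 and 96.1 CPM in positive cells, lowest where Ccnb1 was highest. Among positive cells with 0 Zscan4 UMIs it was nearly level, at 152, 154, 143 and 144 CPM. Those with 20 or more held 62.3, 73.2, 72.9 and 64.6 CPM. In negative cells Ccnd3 was at 170, 172, 162 and 148 CPM. The highest Ccnb1 class held 2.54% of the cells with 0 Zscan4 UMIs and 15.5% of those with 20 or more, and 0.996% of the negative cells with 0.

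The Zscan4 comparison was repeated within each Ccnb1 class, where Ccnb1 itself cannot be read. Between cells with 20 or more and with 0 Zscan4 UMIs, the log2 ratio of Ccna2 was 0.92, 0.72, 0.92 and 0.77 from the lowest to the highest Ccnb1 class, over 21, 80, 100 and 37 Zscan4-high cells. That of Ccne2 was 1.11, 2.04, 1.84 and 1.84, and that of Ccnd3 was -1.29, -1.07, -0.97 and -1.15. For both genes the intervals excluded 0 in each class, except for Ccne2 in the lowest (-0.05 to 2.07). That of Ccnd1 was -1.29, -1.58, -2.06 and -0.83, with intervals that include 0 in the lowest and the highest class. That of Cdkn1b was -1.31, -0.49, -1.06 and -1.61, with intervals that include 0 in the classes of 0 and of 1 to 2. Cdk1 lay inside the fold in every class, at 0.03, 0.49, 0.39 and 0.14, against 0.60 in all cells. Ccnb2 was at -1.09, -0.19, -0.41 and -0.30, below 0 in each class, with intervals that include 0 in the classes of 1 to 2 and of 6 or more.

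Across single cells the members were only weakly related to one another. Pearson's r of log(1 + thinned UMIs) was highest for Ccnb1 with Cdk1, at 0.25 over 4402 positive and 0.14 over 3824 negative cells, while Ccna2 with Ccnb1 was at 0.20 and 0.08 and Ccna2 with Ccnb2 at 0.093 and 0.088. These cells share a library and most counts are of a few UMIs, so the values are a description. The genes most like each member, by the lower of its r in the 2 libraries over 4888 genes, were Ube2c (0.36), Top2a (0.32) and Prc1 (0.31) for Cdk1, and Ube2c (0.25), Cenpf (0.25) and Arl6ip1 (0.21) for Ccnb1. For Ccna2 they were Hmmr (0.16), Cdc20 (0.16) and Plk1 (0.13), and for Ccnb2 Cdc20 (0.12), Cenpa (0.11) and Hmmr (0.11). Ccne1 was closest to H2az1 (0.17), Hnrnpab (0.16) and Rrm2 (0.16), and Ccnd1 to Ptma (0.21), Hspe1 (0.15) and Cacybp (0.14). Ccnd3 was closest to Hsp90aa1 (0.16), Utf1 (0.15) and G3bp2 (0.15), and Ccnd2 to Lama1 (0.13), Srgn (0.12) and Serpinh1 (0.12), of which Lama1 is a laminin gene of the endoderm list. Ccne2 had no close relation, the highest being Slbp (0.058), followed by Cwc22 and Dnaja1, and nor had Cdkn1b, with Malat1 (0.086), Klf3 and Reep5.

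The rest of the cell cycle machinery was read from a list of 50 other genes (kinases, inhibitors, mitotic regulators, E2F and Rb families, and antiproliferative genes). Between the libraries 43 could be compared, of which 7 were higher and 2 lower in the positive library, beside 18.8% and 5.26% of all genes compared, with a median log2 ratio of 0.17 beside 0.15. Btg2, an antiproliferative gene, was at 70.0 against 26.3 CPM, and its relative Btg1 at 59.3 against 35.0 CPM. The cyclin G genes, which are not known as drivers of the cycle, were also higher: Ccng2 was at 12.3 against 4.83 CPM and Ccng1 at 141 against 73.9 CPM. Rb1, the brake on E2F, was at 22.0 against 13.6 CPM. Cdk6, a kinase partner of D-type cyclins, was lower with Ccnd1, at 7.81 against 15.5 CPM. The other lower gene was Cdk4, another such partner, at 248 against 387 CPM; it lies outside the rule for named genes and was added after its value was seen.

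In the Zscan4 comparison 42 of the 50 could be compared, with 11 higher and 8 lower in the highest class, beside 20% and 24.4% of all genes compared, and a median log2 ratio of 0.25 beside -0.14. Ccng2 was at 53.3 against 7.84 CPM, Btg2 at 179.96 against 52.3 CPM and Btg1 at 132 against 49.9 CPM. Fbxo5, the inhibitor of the anaphase-promoting complex that protects cyclins A and B from degradation, was at 283 against 104 CPM. Aurka, a mitotic kinase, was at 147 against 62.1 CPM. Trp53 was lower, at 119 against 258 CPM. By GFP, 3 of 42 were higher and 4 lower, beside 8.92% and 11.7% of all genes, with a median log2 ratio of 0.06 beside -0.14. By Gata6 and Dab2, 2 of 41 were higher and 9 lower in the positive library, beside 12.5% and 15.2% of all genes, with a median log2 ratio of -0.28 beside -0.06. Among negative cells 1 of 39 was higher and 8 were lower, beside 15% and 8.94%, with a median of -0.16 beside 0.04. In the cells with 0 Zscan4 and GFP, 3 of 40 were higher and none lower, beside 12.5% and 2.28%, with a median of 0.08 beside 0.17.

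Some counts may hold reads of a neighbour, since 5 of the 10 genes overlap an annotated gene on the other strand and whether counting used the strand is not given. Ccna2 overlaps Exosc9 by 863 bases, and Exosc9 was at 36.7 against 32.7 CPM in the libraries. In every class of the positive library Exosc9 was between 33.6 and 38.3 CPM. The part of this neighbour, and of those below, in the values of the members was not tested. Ccne2 overlaps Ints8 by 5622 bases, and Ints8 was at 27.3 against 24.7 CPM in the Zscan4 comparison and 25.8 against 19.2 CPM in the libraries. Ccnd1 overlaps LTO1 by 1771 bases, which was at 11.1 against 6.16 CPM in the Zscan4 comparison and at 6.44 against 6.76 CPM in the Gata6 and Dab2 comparison of positive cells, both comparisons in which Ccnd1 was lower. Ccnd3 overlaps Bysl by 361 bases, and Bysl was lower along with it in the Zscan4 comparison, at 35.4 against 52.4 CPM, where its part in the Ccnd3 value was not tested. Between the libraries Bysl was at 49.1 against 46.7 CPM while Ccnd3 was lower. The antisense genes that overlap Ccnd2 held at most 3 UMIs. Copies named as pseudogenes are listed apart from their parent genes, with 36 and 34 UMIs for Ccnb1-ps, 214 and 166 for Ccnb2-ps and 1 in each library for Ccnd3-ps.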

How the data were processed

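Single-cell RNA-seq of 2 libraries of mouse embryonic stem cells was used, 1 a group, taken from the titles. The values are raw counts, deposited as a sparse matrix for each library; they were taken for UMIs, given that cells carry barcodes of 16 bases. FastQC 0.11.2, Trim Galore 0.6.4, STAR 2.7.6a and build mm10 are named in the submitters' processing notes; molecule counting, annotation, strand and cell calling are not given in the sources used here, and the labels' protocols describe kits for bulk total RNA. Cells with at least 1000 UMIs, 500 genes and at most 20% mitochondrial UMIs were kept, 138303336 and 156406894 UMIs in all. Doublets were not called; an alternative leaves out cells above 2 times the median UMIs. Each cell was thinned to 10000 UMIs to sort cells and count cells with a UMI, which left out 194 positive and 8 negative cells, while CPM used all UMIs. Intervals are exact Poisson (CPM), conditional binomial (ratios) and Clopper-Pearson (shares), at 95%. The fold of 1.5 was applied to all genes. On counts simulated with Poisson error only for 55415 features, 100% of 200 genes changed 2-fold were recovered in the library and Zscan4 comparisons. There were 0 false calls among 7323 and 11 among 7707 unchanged genes. The simulation held no spread between cells or libraries, so it checks the calculation and gives no rate of false calls for these data. Positions are from GENCODE M21. Named are the 10 members, for each the 3 genes of highest likeness among those with a mean of at least 0.2 thinned UMIs in both libraries, and up to 6 genes past the fold from the list of 50 in the library and Zscan4 comparisons. The members, lists and classes were chosen with earlier results of these data known. Alternatives were other cell filters, depth windows, scalings, weights, folds, levels, classes and thinning seeds; those restricted to 0 Gata6 and Dab2 or, for GFP, to 0 Zscan4, the level filters for counts of members, the split of joint classes by Zscan4 level and the Ccna2 classes were chosen after seeing the data. Python 3.11.15, numpy 2.4.6, scipy 1.17.1, matplotlib 3.10.9, R 4.3.3 and edgeR 4.0.16 (TMM factors) were used.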

Additional observations from a re-analysis of the deposited data

How the results depend on the processing

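No paired analysis was possible because there is a single library for either label; none could be left out either. Of the 18 member ratios past the fold of 1.5, none changed direction under the 211 alternatives run on them, and 13 of those alternatives put a ratio inside the fold: 4 of 12 for Cdk1 and 1 of 12 each for Ccnb1 and Cdkn1b with Zscan4, 3 of 13 for Ccnd3 with GFP, and 4 of 12 for Cdkn1b with Gata6 and Dab2 in the positive library. Of the 42 ratios inside the fold or below the level filter, 15 changed sign under some alternative. The cause of these changes was not tested.

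The number of members past the fold moved by over 1.5 times as follows. Between the libraries, the 1 lower member became 3 under TMM scaling, 2 under median-of-ratios scaling, 0 at a fold of 2 and 3 at a lower fold, and the 2 higher became 0 at a fold of 2. With Zscan4, the 4 higher became 1 at a fold of 2 and 2 with the wider high class. With GFP, the 2 lower became 1 under TMM scaling, 1 under median-of-ratios scaling, 1 with the wider high class and 0 at a fold of 2, and the 1 higher became 0 at a fold of 2 and 3 at a lower fold. With Gata6 and Dab2 in the positive library, the 2 higher became 1 in cells of 15000 to 40000 UMIs, 1 with cells weighted equally, 1 after thinning, 1 at a fold of 2 and 1 with the wider high class, and the 1 lower became 2 after thinning and 3 at a lower fold. In the negative library the 1 higher became 2 after thinning, 0 at a fold of 2 and 3 at a lower fold, and the 1 lower became 2 at a lower fold. In cells with 0 Zscan4 and GFP, the 0 lower became 2 under TMM scaling, 2 under median-of-ratios scaling, 2 at a lower fold, and 1 each without cells above 2 times the median UMIs, in cells of 15000 to 40000 UMIs, outside ribosomal protein and mitochondrial genes, with cells weighted equally and after thinning, and the 0 higher became 2 at a lower fold. Ccnd2 enters the counts when the level filter is lowered to 1 CPM or dropped, which was added after seeing the data: with either, the 1 higher member of the Gata6 and Dab2 comparison in the negative library became 2, and the 0 higher in cells with 0 Zscan4 and GFP became 1. The other settings run on these counts kept them within 1.5 times.

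Over all members and alternatives, 164 log2 ratios moved by more than their counting interval and 526 did not. Thinning to 5000 UMIs or not thinning moved all 40 shares of cells with a UMI, and of the shares of all genes past the fold 13 moved and 11 did not under a lower or no filter on level. Depth limits Ccnd2 most, with 400 and 322 UMIs in the libraries.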

Other observations

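Within the list of 50 other cell cycle genes, endoderm-marked cells of both libraries shared a set of differences that the text above gives only as counts; these genes are named after their values were seen. Cdk2, the kinase of cyclins E and A, was higher with Gata6 and Dab2, at 45.1 against 25.0 CPM in the positive and 49.3 against 25.7 CPM in the negative library. Of the inhibitor genes, Cdkn1c (p57) was lower, at 8.96 against 40.5 CPM and 14.9 against 53.2 CPM, and Cdkn2a was lower, at 24.9 against 54.5 CPM and 34.7 against 68.9 CPM, in the cells in which Cdkn1b was higher. E2f1, a transcription factor of the G1/S step, was at 14.4 against 28.6 CPM and 13.1 against 27.5 CPM. Trp53 was at 141 against 244 CPM and 163 against 293 CPM. Fbxo5, higher in Zscan4-high cells, was lower here, at 82.3 against 131 CPM and 73.4 against 111 CPM.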
